A study of Mus musculus with 9 samples.

Results

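Metallothioneins, selenoprotein P and the classical antioxidant enzymes were followed in the stroma of a mouse model of prostate cancer. The set comprised 10 genes, taken by their symbol in the probe table of the array: Mt1, Mt2, Selenop, Gpx1, Gpx3, Gpx4, Prdx1, Txn1, Sod1 and Cat. All 10 were present, as 13 of the 17664 spotted cDNA clones in the table and as 10 of 8146 genes with a symbol. Mt2, Gpx1 and Prdx1 were each spotted as 2 clones and the other 7 genes as 1. A further clone that carried both Gpx4 and Exosc7 as symbols was left out. Selenop and 1 of the Mt2 clones belong to the clones that the study selected on these same samples, so their direction here is not independent evidence.

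The mice were hemizygous CR2-TAg males on the FVB background. In this model regulatory elements of the cryptidin-2 gene drive SV40 large T antigen in neuroendocrine cells of the prostate; the stroma analysed here surrounds the lesions that these cells form. Stroma was cut out by laser capture microdissection at 24 weeks of age, when the tumors are invasive and have metastasized (6 mice, 1 array each), and at 10 weeks, when the glands hold prostatic intraepithelial neoplasia or PIN (3 mice, 1 array each, replicates 2, 3 and 4). The remaining PIN array was not analysed here. Age and tumor stage changed together, and their parts in any difference cannot be told apart. Each hybridization set a Cy5-labelled sample against a Cy3-labelled pool of PIN RNA, without a dye swap, and the pool included the RNA of each PIN sample itself. Every value below is therefore the log2 ratio of a sample over the PIN pool, where 0 means equal signal, and a difference is the mean of the invasive arrays minus the mean of the PIN arrays.

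The arrays carried values for 17189 to 17206 clones, and their medians lay between -0.00345 and 0.008 on the log2 scale. Between invasive arrays the correlation over all clones was 0.256 to 0.769. The least alike of the PIN arrays was replicate 4, whose correlation with replicates 2 and 3 was 0.176 and 0.189, beside 0.672 between those 2. Clones of a symbol were averaged on each array, and limma was fitted to the 8106 genes that had a value on 4 or more invasive arrays and 2 or more PIN arrays. A gene passed at a Benjamini-Hochberg adjusted p under 0.15, the false discovery rate that the study used.

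Metallothioneins are small, cysteine-rich proteins that bind zinc and copper and scavenge oxidants. Zinc activates their transcription through the factor MTF-1, which binds metal response elements near the start site, and glucocorticoids and inflammatory cytokines also induce them. Selenoproteins carry selenium as selenocysteine. Selenoprotein P transports selenium in plasma and delivers it to tissues, whereas the glutathione peroxidases use it to reduce peroxides. Thioredoxin and the peroxiredoxins form a parallel peroxide-reducing system, and superoxide dismutase and catalase handle superoxide and hydrogen peroxide in turn.

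Mt2 and Selenop rose in invasive cancer stroma, and the other 8 genes did not pass. Thus 2 of 10 genes passed, both upward, where 5.64% of all 8106 genes passed (3.75% higher and 1.89% lower). Among the clones 2 of 13 passed, against 2.16% of 17207 clones tested. The invasive and PIN arrays did not overlap in 2 of 10 genes, against 7.85% of all genes (4.86% with the invasive arrays higher), and 2 of 10 had an unadjusted p under 0.05, against 15.0%. The median difference of the 10 genes was 0.29, beside 0.02 for all genes tested. By the size of the increase Selenop ranked 10 and Mt2 ranked 64 of 8106 genes, and by p they ranked 43 and 201.

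**Figure D1:**
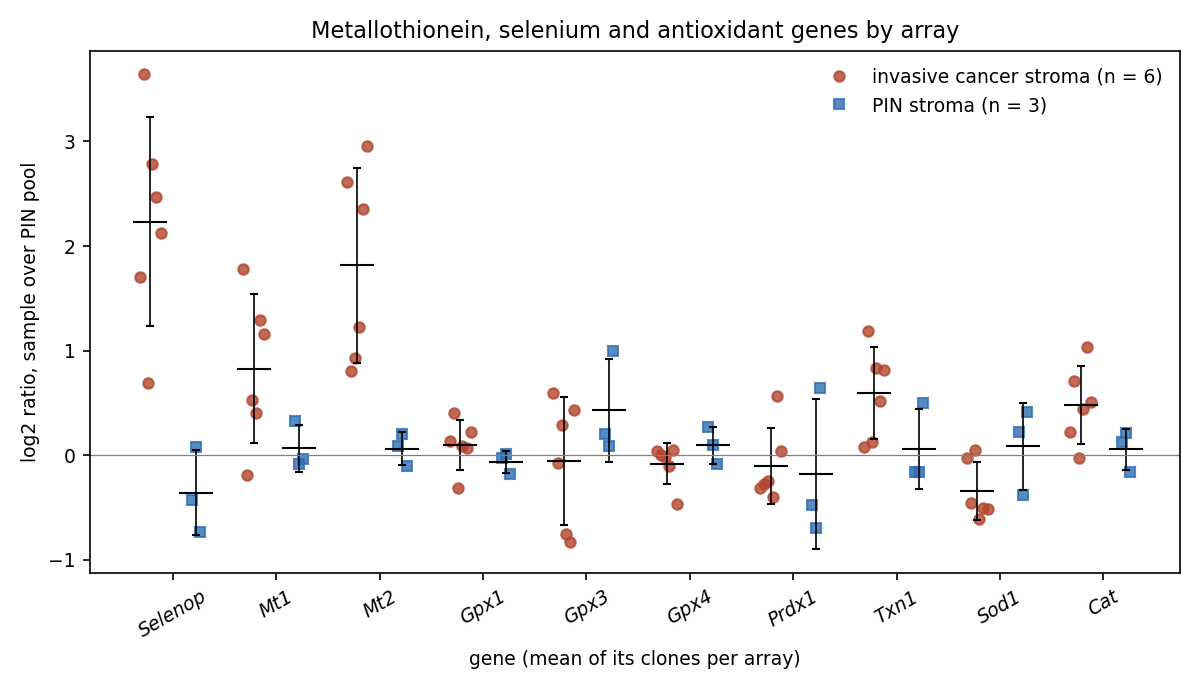
Log2 ratio of each sample over the PIN pool (vertical axis) for the 10 genes (horizontal axis, clones averaged). Circles stand for the 6 invasive samples and squares for the 3 PIN samples; bars give the mean ± SD. Selenop and Mt2 are the genes whose invasive arrays all lie above the PIN arrays, from 0.69 and 0.81 upward; the other 8 overlap.

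The metallothionein genes Mt2 and Mt1 lie side by side on chromosome 8, in the same orientation and 5315 bases apart (Mt2 at chr8:94172618-94173567 and Mt1 at chr8:94178883-94180327, GRCm38.p6). Their promoters are shown because both genes are classical targets of MTF-1 and because their values on the arrays went up and down together. The windows run from 250 bases before to 50 bases after a start site in RefSeq's promoter annotation, at chr8:94172368-94172667 for Mt2 and chr8:94178839-94179138 for Mt1, both on the plus strand. For Mt2 that start site is the first base of the gene span above, whereas for Mt1 it lies 206 bases inside the span. The Mt1 window thus covers only 44 bases before the span. Sequence further upstream or downstream of either window was not searched. The windows lie differently against their gene spans, so their match counts do not compare like parts of the genes. Capitals mark matches to the core of the metal response element, TGCACNC or TGCGCNC, searched on both strands, so a match on the opposite strand reads as its reverse complement.
Mt2: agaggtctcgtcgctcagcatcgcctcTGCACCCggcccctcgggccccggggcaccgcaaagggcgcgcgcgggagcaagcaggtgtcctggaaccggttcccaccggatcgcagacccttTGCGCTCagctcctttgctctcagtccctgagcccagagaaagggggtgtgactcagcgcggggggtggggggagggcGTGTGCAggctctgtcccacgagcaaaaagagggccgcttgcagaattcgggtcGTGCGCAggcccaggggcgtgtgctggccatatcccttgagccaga
Mt1: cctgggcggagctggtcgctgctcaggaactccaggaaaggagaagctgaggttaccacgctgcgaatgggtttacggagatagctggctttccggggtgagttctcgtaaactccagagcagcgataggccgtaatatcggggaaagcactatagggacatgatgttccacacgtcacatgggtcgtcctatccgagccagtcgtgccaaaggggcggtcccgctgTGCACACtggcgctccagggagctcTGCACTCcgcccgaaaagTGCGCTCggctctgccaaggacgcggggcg

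The Mt2 window held 4 matches, whose first bases lay at -223, -128, -50 and 4 relative to the start site. The Mt1 window held 3, at -23, 2 and 20 relative to the start site of its window, or 183, 208 and 226 from the first base of the gene span. Across all 32851 promoter windows of the same length, 25.7% held at least 1 match, 1.97% held 3 or more and 0.517% held 4 or more. None of the windows of the other 8 genes held these letters, including all 3 start sites listed for Selenop and all 4 for Gpx4. The core of the antioxidant response element, TGACNNNGC, which Nrf2 binds, occurred once each in the windows of Mt2, Prdx1 and Sod1, and in 12.4% of all windows. It does not overlap the metal response element matches in Mt2. Such matches are letters in a window and were not tested as binding sites.

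**Figure D2:**
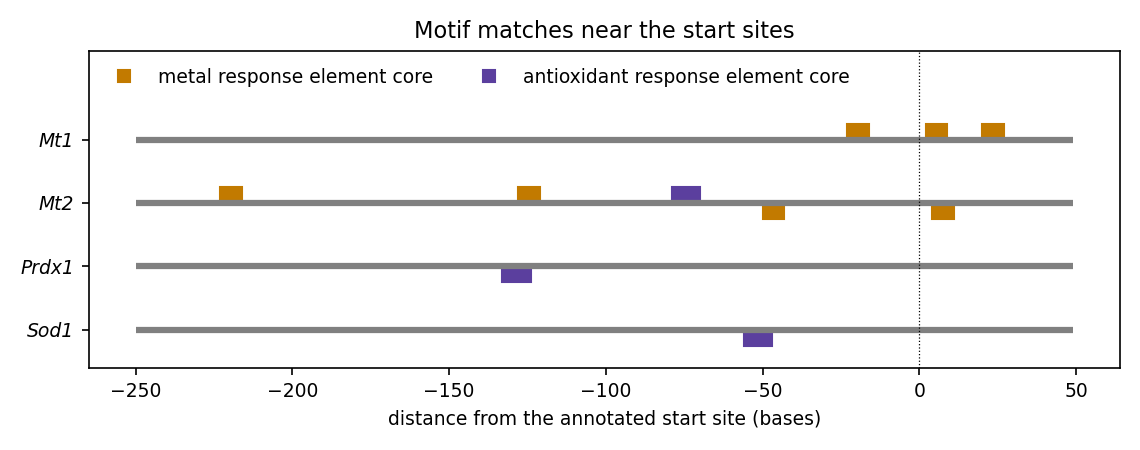
Positions of the motif matches in the 300-base windows of Mt1, Mt2, Prdx1 and Sod1. The horizontal axis is the distance in bases from the start site in RefSeq's promoter annotation (dotted line), and boxes above or below a line are matches on the gene's own or the opposite strand. Mt2 holds 4 metal response element cores and 1 antioxidant response element core, and Mt1 holds 3 metal response element cores. Prdx1 and Sod1 each hold 1 antioxidant response element core.

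Mt2 encodes metallothionein 2. Its log2 ratio on the invasive arrays was 0.81 at the lowest (replicate 2), 1.79 at the median and 2.95 at the highest (replicate 6), and on the PIN arrays it was 0.09, 0.20 and -0.11. The lowest invasive array exceeded the highest PIN array, and replicates 1, 5 and 6 stood well above replicates 2, 3 and 4. Mt2 was thus 3.36-fold higher in the invasive group (log2 difference 1.75 with SE 0.45, limma adjusted p = 0.0905). In microdissected tissue a higher level per cell and more cells that express a gene cannot be told apart. This call depended on the arrays: Mt2 no longer passed when PIN replicate 2, 3 or 4 was left out (adjusted p = 0.266, 0.232 and 0.172 from limma) or invasive replicate 5 (adjusted p = 0.168). Fewer genes passed in general in those fits (0.457%, 1.12%, 4.94% and 2.70% of all genes, in that order) than with all arrays (5.64%). The difference stayed between 1.52 and 1.95 over all 9 such fits, and it was 1.84 (limma adjusted p = 0.0697) when PIN replicate 4 and invasive replicate 3 were both left out.

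The 2 Mt2 clones reported the same pattern. Clone 1 had 0.89, 1.86 and 2.89 as its lowest, median and highest invasive values and 0.26, 0.16 and -0.18 on the PIN arrays. Clone 2 had 0.72, 1.72 and 3.12, and -0.08, 0.25 and -0.03 on the PIN arrays. In both clones the groups were apart, and on no array did the clones differ by more than 0.56. Tested among all clones, clone 1 passed (log2 difference 1.82 with SE 0.45, limma adjusted p = 0.101) and clone 2 did not (log2 difference 1.68 with SE 0.48, adjusted p = 0.163), although their intervals largely coincide (0.85 to 2.79 and 0.63 to 2.73).

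Mt1, the neighbouring metallothionein gene, was measured by 1 clone. Its invasive values were -0.19 at the lowest (replicate 2), 0.84 at the median and 1.78 at the highest (replicate 1), and its PIN values were 0.33, -0.09 and -0.04. The groups overlapped: 5 of 6 invasive arrays exceeded all PIN arrays, and replicate 2 fell below them. The difference of 0.76 (SE 0.37, limma adjusted p = 0.350) did not pass, with a 95% interval of -0.03 to 1.56 that includes both no difference and one near that of Mt2.

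On each invasive array the ratio of Mt2 exceeded that of Mt1, by 0.41 to 1.80 on the log2 scale, with a mean of 0.98 ± 0.46 (SD, n = 6). On the PIN arrays the gap was -0.23, 0.29 and -0.07. The groups were apart, and the gap was larger in the invasive group by 0.99 (exact two-sided permutation test, p = 0.0238, the smallest p that 6 against 3 arrays allow, also after adjustment for the 2 gaps of this kind that were tested). The gap was chosen after the values had been seen, so its p-value is a description and adds no support. The adjustment does not cover that choice. The transcripts of Mt1 and Mt2 are similar in sequence, and to what extent a spotted cDNA clone captured both was not tested.

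**Figure D3:**
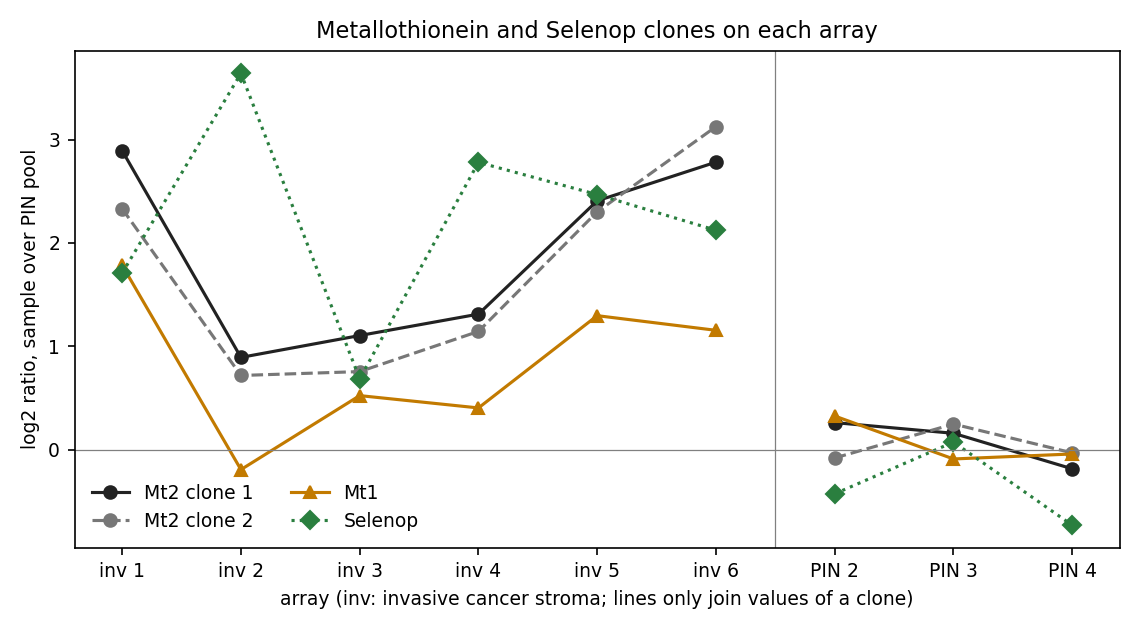
Log2 ratio over the PIN pool (vertical axis) of both Mt2 clones, Mt1 and Selenop on each array (horizontal axis); lines join the values of a clone and carry no order. Both Mt2 clones and Mt1 are high on invasive replicates 1, 5 and 6 and lower on 2, 3 and 4, whereas Selenop peaks on replicate 2 at 3.64 and is lowest on replicate 3 at 0.69.

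Selenop (chr15:3270767-3280510, GRCm38.p6) encodes the secreted selenium carrier selenoprotein P and was measured by 1 clone. Its log2 ratio on the invasive arrays was 0.69 at the lowest (replicate 3), 2.30 at the median and 3.64 at the highest (replicate 2), and on the PIN arrays it was -0.42, 0.08 and -0.73. Again the groups did not overlap, and invasive replicate 3 came closest to the PIN arrays. Selenop was 6.03-fold higher in the invasive group (log2 difference 2.59 with SE 0.49, limma adjusted p = 0.0371), the largest difference of the 10 genes. It was also the 1 gene of the 10 that passed at an adjusted p under 0.05, where 0.938% of all genes did. The difference was 2.31 to 2.90 with each array left out in turn, and the call was lost without PIN replicate 2 (log2 difference 2.56, limma adjusted p = 0.171), a fit in which 0.457% of all genes passed. Without PIN replicate 4, where 4.94% of all genes passed, the difference was 2.41 (limma adjusted p = 0.0921), and without both PIN replicate 4 and invasive replicate 3 it was 2.72 (adjusted p = 0.00920).

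**Figure D4:**
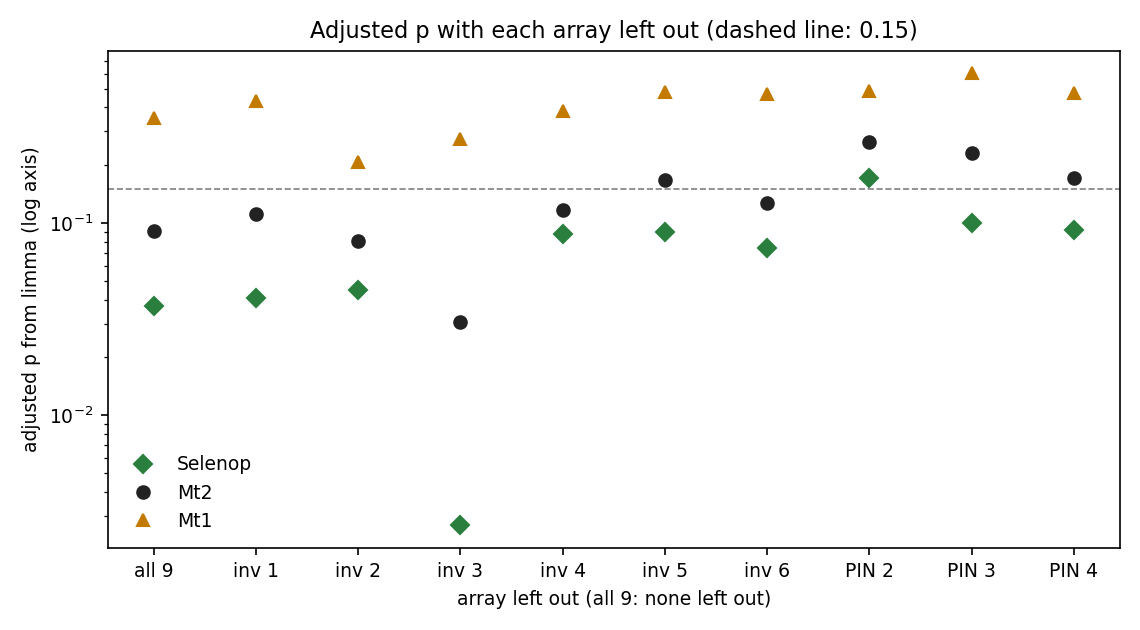
Adjusted p from limma (vertical axis, log scale) for Selenop, Mt2 and Mt1 with all 9 arrays and with each array left out (horizontal axis); the dashed line is 0.15. Selenop crosses the line when PIN replicate 2 is left out (0.171), Mt2 crosses it for the 3 PIN arrays and invasive replicate 5, and Mt1 stays above it throughout, from 0.208 to 0.602.

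Selenop and the metallothioneins did not peak on the same arrays. Invasive replicate 2 had the highest Selenop value and the lowest values of Mt1 and Mt2, and replicate 3 was low for Selenop and Mt2 alike. The genes whose values tracked Selenop most closely over the 9 arrays, among 8086 compared, were Rap1b (r = 0.981), Anxa1 (0.981), Npl (0.974), Zfp36l2 (0.972) and Dab2 (0.970). For the mean of Mt1 and Mt2, among 8085 genes, they were Adam8 (r = 0.960), Sox4 (0.935), Adamts4 (0.912), C1qtnf6 (0.910) and Ecrg4 (0.903). These are descriptions of 9 arrays that share a reference pool and differ in group, and they carry no test.

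Markers of other cells were counted in the same fit, in which 5.64% of all genes passed. Of the macrophage markers listed, 7 of 21 were tested and 5 rose; their median per array was 0.54 to 2.56 in the invasive group and -0.38 to 0.42 in the PIN group. The lowest of those invasive medians was that of replicate 3, which also had the lowest Selenop value, and the other 5 lay at or above 1.80. This was not particular to macrophages. Replicate 3 also had the lowest invasive medians of the fibroblast and pericyte (0.04), endothelial (0.33) and erythroid markers (-0.35). Its smooth muscle (-0.39) and epithelial (-0.68) medians were the highest, and its neuroendocrine tumor marker median (2.31) lay between those of other invasive arrays. Fibroblast and pericyte markers rose in 3 of 9, with array medians of 0.04 to 1.40 against -0.54 to 0.15, and endothelial markers in 2 of 8, with 0.33 to 1.59 against -0.06 to 0.10. Smooth muscle markers fell in 2 of 4, with array medians of -3.96 to -0.39 against -0.60 to 0.43. Of the neuroendocrine tumor markers 1 of 5 rose (0.40 to 2.74 against -0.17 to 0.66), of the epithelial markers 1 of 8 fell (-1.47 to -0.68 against -1.34 to 0.74), and 0 of 2 erythroid markers passed with limma (0 also at an unadjusted p under 0.05). Ratios to a pool give no absolute level, so whether a marker was near 0 cannot be read from them. The part of these cell types in the values of Selenop and Mt2 was not tested.

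The glutathione peroxidases, which share selenocysteine with Selenop, did not pass in any of the 3 cases. Gpx1 (chr9:108339080-108340342), the cytosolic enzyme, ranged from -0.32 through a median of 0.11 to 0.41 on the invasive arrays and had -0.02, 0.02 and -0.18 on the PIN arrays. The groups overlapped, and the difference was 0.16 (SE 0.19, 95% interval -0.26 to 0.58, limma adjusted p = 0.773). The 2 Gpx1 clones disagreed: they differed by up to 1.17, had opposite signs on 6 of 9 arrays, and gave 0.99 and -0.17 on invasive replicate 2. The mean of Gpx1 thus averages clones that do not report the same pattern, in contrast to Mt2 and Prdx1, whose clones had opposite signs on 1 of 9 arrays.

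Gpx3 (chr11:54902854-54910387), the secreted plasma enzyme, had -0.83, 0.11 and 0.60 as its lowest, median and highest invasive values and 0.21, 0.09 and 0.99 on the PIN arrays. Replicates 4 and 5 had the lowest values, -0.76 and -0.83, with the other invasive arrays near or within the PIN range, and the difference of -0.49 did not pass (SE 0.35, 95% interval -1.25 to 0.27, limma adjusted p = 0.573). Without PIN replicate 4, the highest PIN array, it was -0.21. Gpx4 (chr10:80047166-80056439), which reduces lipid hydroperoxides in membranes, varied the least of the 10 genes over the invasive arrays, from -0.47 to 0.05, and had 0.27, 0.09 and -0.08 on the PIN arrays. Its difference was -0.18 (SE 0.19, 95% interval -0.58 to 0.23, limma adjusted p = 0.736), and -0.09 without PIN replicate 2.

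Selenop was also set against the selenium-dependent peroxidases within each array. On each invasive array Selenop exceeded the mean of Gpx1, Gpx3 and Gpx4 by 0.70 to 3.53 on the log2 scale, with a mean of 2.25 ± 1.05 (SD, n = 6), and on the PIN arrays the gap was -0.58, 0.01 and -0.97. The groups were apart, with a difference between them of 2.76 (exact two-sided permutation test, p = 0.0238, the smallest p possible, also after adjustment). This gap too was chosen after the values had been seen, and much of it is the rise of Selenop given above. Selenop alone had already set the groups apart, so the p-value adds no support. The adjustment does not cover that choice.

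Thioredoxin and peroxiredoxin 1 act in the thioredoxin-dependent reduction of peroxides. Txn1 (chr4:57943373-57956411) had 0.08, 0.67 and 1.19 as its lowest, median and highest invasive values and -0.16, -0.16 and 0.50 on the PIN arrays. All 6 invasive values were positive, 4 of them above every PIN array, and PIN replicate 4 closed the gap between the groups. The difference of 0.53 did not pass (SE 0.27, 95% interval -0.06 to 1.13, limma adjusted p = 0.388). With PIN replicate 4 and invasive replicate 3 both left out it was 0.85 and passed (limma adjusted p = 0.118, where 13.1% of all genes passed).

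Prdx1 (chr4:116685599-116700000) encodes the cytosolic peroxiredoxin 1. Its invasive values ran from -0.40 through -0.26 to 0.57, and its PIN values were -0.48, -0.70 and 0.64. The PIN arrays themselves spanned the whole invasive range, with an SD of 0.72 that was the widest among the 10 genes, and the difference was 0.07 (SE 0.31, 95% interval -0.59 to 0.74, limma adjusted p = 0.945). Its sign turned when invasive replicate 5, PIN replicate 2 or PIN replicate 3 was left out (-0.06, -0.08 and -0.19). Both clones placed invasive replicate 5 and PIN replicate 4 highest, at 0.61 and 0.78 for clone 1 and 0.54 and 0.50 for clone 2.

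Sod1 (chr16:90220762-90226333), the copper and zinc superoxide dismutase, had -0.61, -0.48 and 0.05 as its lowest, median and highest invasive values and 0.22, -0.38 and 0.41 on the PIN arrays. Its groups overlapped through PIN replicate 3, and the difference of -0.43 did not pass (SE 0.23, 95% interval -0.93 to 0.08, limma adjusted p = 0.422); it was -0.66 without that array and -0.26 without PIN replicate 4. Cat (chr2:103453904-103485153), the peroxisomal catalase, had -0.03, 0.48 and 1.04 on the invasive arrays and 0.13, 0.21 and -0.16 on the PIN arrays. Of the invasive arrays 5 of 6 lay above all PIN arrays, and replicate 3 lay among them. The difference of 0.42 did not pass (SE 0.24, 95% interval -0.09 to 0.94, limma adjusted p = 0.434).

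The wider pathways were described from lists of genes that include these 10. In all, 7 of the 88 distinct genes tested in these lists passed, or 7.95%, beside 5.64% of all genes: Selenop, Mt2, Selenoh, Msrb1, Prdx4, Hmox1 and Ftl1. Clones of Msrb1, Prdx4, Hmox1 and Ftl1 are, like those of Selenop and Mt2, among the clones that the study selected on these samples. The count fell to 0 when PIN replicate 2 was left out, a fit in which 0.457% of all genes passed. It fell to 3 without PIN replicate 3, where 1.12% of all genes passed. Without invasive replicate 3, where 11.1% of all genes passed, it reached 15.

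Among 14 selenoproteins tested 2 rose and 1 fell, beside 3.75% and 1.89% of all genes, with a median difference of 0.21. Besides Selenop, the DNA-binding nuclear selenoprotein gene Selenoh rose, with 0.61, 1.01 and 2.67 as its lowest, median and highest invasive values against -0.03, -0.89 and 0.42 on the PIN arrays. The groups were apart, and Selenoh was 2.74-fold higher (log2 difference 1.45 with SE 0.42, limma adjusted p = 0.123). That call was lost in 6 of the 9 fits with an array left out, those without invasive replicate 2, 4, 5 or 6 or PIN replicate 2 or 3, with adjusted p up to 0.382. Msrb1, a methionine sulfoxide reductase with selenocysteine at its active site, fell: its invasive values were -2.09, -1.20 and -0.48 and its PIN values 0.37, 0.02 and -0.02. The groups were apart here too, and Msrb1 was 2.63-fold lower (log2 difference -1.39 with SE 0.31, limma adjusted p = 0.0569), a call lost without PIN replicate 2 (adjusted p = 0.249) or PIN replicate 3 (adjusted p = 0.177). Dio3, the deiodinase that inactivates thyroid hormone, did not overlap between the groups but did not pass (log2 difference 1.19, limma adjusted p = 0.170). It passed without invasive replicate 3 (1.32, limma adjusted p = 0.0956, where 11.1% of all genes passed) and had 0.89 without PIN replicate 4. Dio3 is named after its values were seen.

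Of the genes for selenium uptake and selenocysteine insertion 7 were tested and 0 passed with limma, with 1 at an unadjusted p under 0.05; the methods' t-test called 0 and limma with array weights 1, beside 15.0% (unadjusted p) and 20.8% (array weights) of all genes. Sephs2, which makes the selenium donor for selenocysteine, had the smallest p, with invasive values of -0.41, 0.26 and 0.66 and PIN values of -0.77, -0.23 and -0.15. Its difference was 0.60 (SE 0.26, limma adjusted p = 0.309). The receptor Lrp2, which takes up selenoprotein P in the kidney, had -0.21 (SE 0.27, limma adjusted p = 0.791) and is also named after its values were seen.

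**Figure D5:**
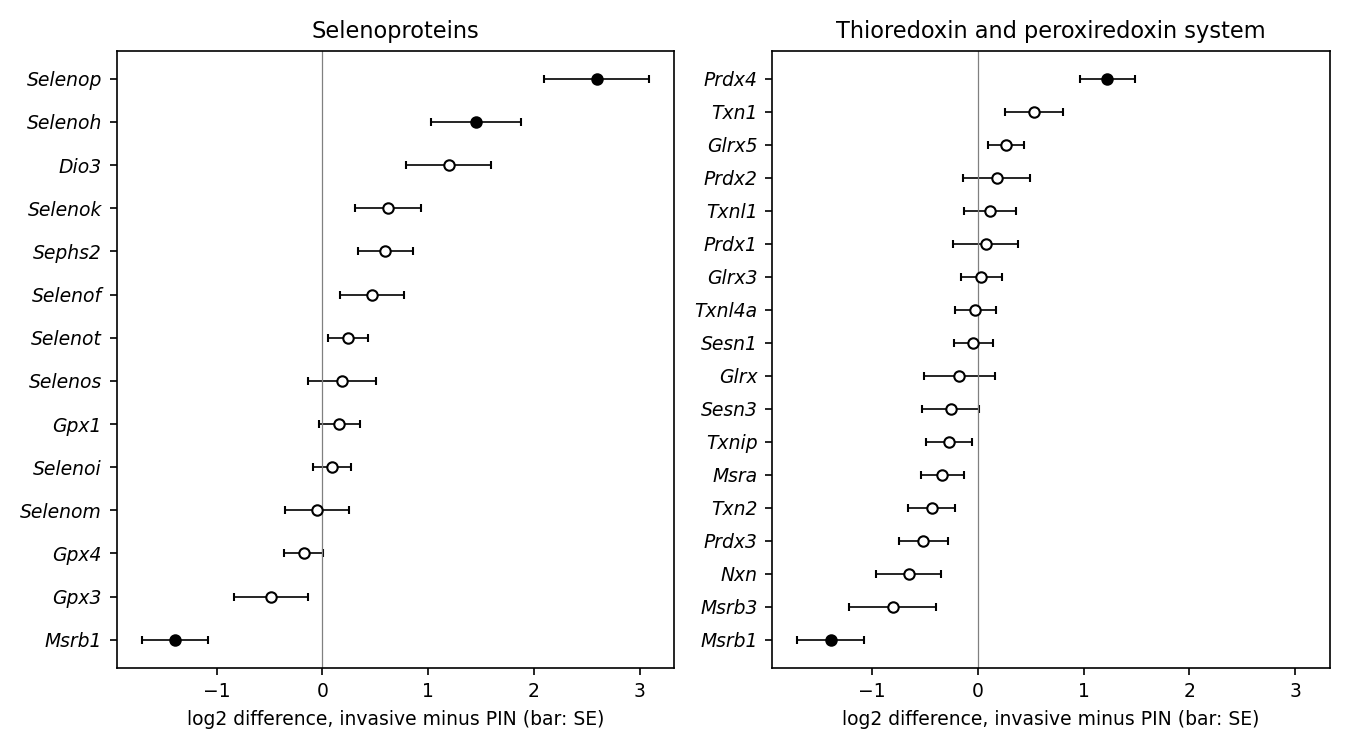
Log2 difference between invasive and PIN stroma (horizontal axis, bars are SE) for 14 selenoproteins (left) and 18 genes of the thioredoxin and peroxiredoxin system (right). Filled circles passed at an adjusted p under 0.15 and open circles did not. Selenop (2.59), Selenoh (1.45) and Prdx4 (1.22) lie to the right and Msrb1 (-1.39) to the left, while Gpx1 (0.16), Gpx3 (-0.49), Gpx4 (-0.18), Prdx1 (0.07) and Txn1 (0.53) are open circles between them.

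In the metallothionein and zinc list 13 genes were tested and 1, Mt2, rose, a share of 7.69% that is near the 5.64% of all genes that passed, with a median difference of 0.14. The zinc transporters and the other regulators did not pass. Mtf1, which encodes the zinc-sensing activator of metallothionein genes, had invasive values of -0.25, -0.02 and 0.32 and PIN values of -0.41, -0.36 and -1.07. The groups did not overlap, but the difference of 0.62 did not pass (SE 0.22, limma adjusted p = 0.182). Without invasive replicate 3 it was 0.64 and passed (limma adjusted p = 0.145, where 11.1% of all genes passed). Without PIN replicate 4 it was 0.39 and did not pass (limma adjusted p = 0.412). Set against the pool alone, the mean of the invasive arrays was 0.0095 (limma adjusted p = 0.966). Mtf1 is named after its values were seen.

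In the thioredoxin and peroxiredoxin system 18 genes were tested, 1 rose and 1, Msrb1, fell (11.1%, beside 5.64% of all genes), with a median of -0.11. Prdx4, the peroxiredoxin of the endoplasmic reticulum, had invasive values of 0.49, 1.19 and 1.48 and PIN values of 0.10, 0.07 and -0.60. Every invasive array exceeded the PIN arrays, and Prdx4 was 2.34-fold higher (log2 difference 1.22 with SE 0.26, limma adjusted p = 0.0512), a call lost without PIN replicate 2 (adjusted p = 0.165). Its relative Prdx1, as given above, had a difference of 0.07. Whether the 2 peroxiredoxins differ in their response was not tested.

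Among 16 regulators and targets of Nrf2, the transcription factor of the oxidant response, 2 rose (12.5%, beside 3.75% of all genes higher), with a median difference of 0.17. Hmox1, the heme oxygenase, had 0.80, 1.25 and 1.37 as its lowest, median and highest invasive values and 0.12, 0.52 and -0.32 on the PIN arrays. It was 2.15-fold higher (log2 difference 1.10 with SE 0.22, limma adjusted p = 0.0431), and the call was lost without PIN replicate 2 (adjusted p = 0.177). Ftl1, the ferritin light chain that stores iron, averaged over 6 clones, had 0.72, 1.52 and 2.30 against -0.13, -0.07 and 0.46. It was 2.67-fold higher (log2 difference 1.42 with SE 0.31, limma adjusted p = 0.0565), a call lost without PIN replicate 2 (adjusted p = 0.247) or PIN replicate 3 (adjusted p = 0.201). In both genes the groups were apart. The members of this list that made up the set itself, Txn1 and Prdx1, did not pass, and neither did the gene of Nrf2, Nfe2l2, with 0.24 (SE 0.26, limma adjusted p = 0.744; named after its values were seen).

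In the remaining 3 lists 0 genes passed with limma or the methods' t-test. At an unadjusted p under 0.05, where 15.0% of all genes lay, there were 1 of 10 genes of superoxide dismutases, catalase and copper chaperones, 2 of 9 of glutathione synthesis and glutathione peroxidases, and 3 of 9 of NADPH oxidase and other oxidant-forming enzymes; limma with array weights, which passed 20.8% of all genes, called 0, 3 and 4. In the first of these lists the smallest p was that of Park7, an oxidant-sensing chaperone, with invasive values of -0.68, 0.01 and 0.26, PIN values of 0.57, 0.21 and 0.48 and a difference of -0.51 (SE 0.22, limma adjusted p = 0.308). In the glutathione list it was Gpx8, a peroxidase of the endoplasmic reticulum without selenocysteine, with 0.85 (SE 0.28, limma adjusted p = 0.166). Among the oxidant-forming enzymes it was Xdh, the xanthine dehydrogenase, with 1.17 (SE 0.38, limma adjusted p = 0.156). Gpx8 and Xdh passed when invasive replicate 3 was left out (adjusted p = 0.0621 and 0.00853 from limma). In that fit 11.1% of all genes passed, beside 5.64% with all arrays. Cybb, the phagocyte NADPH oxidase subunit, passed in it too. Its difference was 1.69 with all arrays (limma adjusted p = 0.187) and 2.14 without invasive replicate 3 (limma adjusted p = 0.00666). Without PIN replicate 4 Gpx8 had 0.56 (limma adjusted p = 0.381), whereas leaving out PIN replicate 2 gave limma adjusted p = 0.399 for Xdh and 0.512 for Cybb. Cybb is named after its values were seen.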

How the data were processed

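Stromal RNA of 9 mice, 1 array each, was measured on spotted cDNA arrays with 2 colors. Per the methods, the authors amplified RNA of microdissected stroma linearly, extracted spot intensities with ScanAlyze, and applied lowess within print-tip groups in the SMA package, with no background subtracted. What they deposited is a log2 ratio per clone and array, sample (Cy5) over PIN pool (Cy3). Spot intensities were not used here, so signal over background and dim or saturated spots are not known, and the number of arrays limits the precision.

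Of 17664 rows, 457 held no value. The probe table gave 1 symbol to 12563 rows, several to 412 and none to 4689; genes were named from rows with 1 symbol. Members were found by symbol, all 10 having RefSeq positions and promoter windows of GRCm38.p6. Rows measured on 4 or more invasive arrays and 2 or more PIN arrays were fitted as a two-group comparison, invasive less PIN, by lmFit and eBayes of limma 3.58.1 under R 4.3.3, with two-sided p-values, as 17207 clones and, averaged by symbol, as 8106 genes, with Benjamini-Hochberg adjustment over all of them and a threshold of 0.15 after the study. Intervals are 95% and unadjusted. Exact permutation tests used all 84 splits of 6 and 3 arrays. Genes named were the 10 members, the passing genes of each list with the smallest p (at most 4 besides the members, or 1 where none passed), and the 5 genes of highest Pearson r with Selenop and with the mean of Mt1 and Mt2; others are marked. The members, the lists and the tests were chosen with earlier results of these data known.

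In simulated arrays (6 against 3, 17163 clones) the fit passed 42 of 100 clones given a log2 change of 1, 78 of 100 given 2, and 29 of 16963 left as they were. The real arrays were uneven, with limma array weights from 0.470 (PIN replicate 4) to 1.95 (PIN replicate 3). PIN replicate 4 correlated with the other PIN arrays at only 0.176 and 0.189. Whether the counts above hold for such arrays was not tested. The study's list of selected clones, its own fold changes and p-values, and its other supplementary tables were not used for any value. The alternatives changed the test (the methods' t-test, equal variances, a robust prior or array weights), the scaling (3 further normalizations), the filter on missing values (2), the summary of clones (median), the contrast (invasive arrays against 0), the threshold (0.05), the blocking (replicate number) and the arrays used. The methods name a two-tailed, two-sample t-test without saying whether variances were taken as equal. What is called the methods' t-test here used unequal variances (Welch), so either form may be the one the study ran. Summaries, motif searches and plots used Python 3.11.15 with scipy 1.17.1, pandas 2.3.3, numpy 2.4.6 and matplotlib 3.10.9.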

Additional observations from a re-analysis of the deposited data

Results flagged for a closer look

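In 4 of 28 genes and clones examined, 1 invasive array lay far from the other 5. Its gap to the nearest neighbour, as a share of the group's whole range, was above Dixon's 95% critical value for 6 values. Chance alone flags about 1 in 20 items if they are normal and independent, whereas these 28 mix gene means and single clones on the same arrays. The share flagged over all genes was not counted. Gpx4 was at -0.47 (-0.4661) on invasive replicate 6, where the next lowest array had -0.10. Prdx1 clone 2 was at 0.54 (0.5353) on invasive replicate 5, where the next highest had -0.17. Hmox1 was at 0.80 (0.8012) on invasive replicate 3, where the next lowest had 1.20. Cybb was at -0.48 (-0.4834) on the same array, where the next lowest had 1.60. On invasive replicate 3 the macrophage marker median was also the lowest of the 6 invasive arrays, at 0.54. So were its fibroblast and pericyte (0.04), endothelial (0.33) and erythroid (-0.35) medians, but not that of the neuroendocrine tumor markers (2.31). The part of any of those cells in the values of Hmox1 and Cybb was not tested.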

How the results depend on the processing

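Over 14 alternatives besides the leaving out of single arrays, Selenop kept its direction and 12 calls. It missed 0.15 in the equal-variance test (difference 2.59, adjusted p = 0.198). Mt2 kept its direction and 9 calls. It missed in the methods' t-test (1.75, adjusted p = 0.167), the equal-variance test (1.75, adjusted p = 0.268), after quantile normalization (1.64, adjusted p = 0.173 from limma) and at the threshold of 0.05 (1.75, adjusted p = 0.0905). Txn1 passed with array weights (0.77, adjusted p = 0.0533 from limma, where 20.8% of all genes passed) and without PIN replicate 4 and invasive replicate 3 (0.85, adjusted p = 0.118), an alternative chosen after seeing the data, in which Prdx1 had 0.51. Against 0, which leaves out the spread of the PIN arrays and where 32.0% of all genes passed, Mt1 (0.83), Txn1 (0.60), Sod1 (-0.34) and Cat (0.48) passed and Prdx1 turned to -0.10. Selenop (2.23) and Mt2 (1.81) also passed in that fit, and Gpx3 had -0.06. The cause of these changes was not tested.

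Of the 10 genes, 1 passed in the methods' t-test (2.55% of all genes did), after quantile normalization and at 0.05, 0 in the equal-variance test and 6 against 0. Of the 13 clones, 0 passed in the methods' t-test and 0 in the equal-variance test, 4 with array weights, 1 after quantile normalization, 7 against 0 and 1 at 0.05. The study's own selection also used the PIN array that was not analysed here, so these counts do not repeat its test. Of the list genes, where 7 passed, the count was 3 in the methods' t-test, 25 with array weights, 1 in the equal-variance test, 43 against 0, 19 without PIN replicate 4 and invasive replicate 3, and 2 at 0.05. Over all genes, 457 passed, and 207, 1685, 54 and 2595 in the methods' t-test, with array weights, in the equal-variance test and against 0.

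With each array left out in turn, 0 to 2 of the 10 genes passed, 0 to 3 clones and 0 to 15 list genes. Over the same fits the share of all genes that passed ran from 0.457% (without PIN replicate 2) to 11.1% (without invasive replicate 3). The differences ranged from 2.31 to 2.90 for Selenop, 0.42 to 0.75 for Txn1, 1.52 to 1.95 for Mt2, and -0.19 to 0.48 for Prdx1, whose sign turned without invasive replicate 5 (-0.06), PIN replicate 2 (-0.08) or PIN replicate 3 (-0.19).

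The replicate numbers 2, 3 and 4 occur in both groups, but same-numbered arrays did not deviate together (r of -0.14 to -0.04 over 3 pairs). Differently numbered pairs had r of -0.22 to 0.22. With so few pairs these values cannot tell whether same-numbered arrays were processed together. With the replicate block, which keeps those 6 arrays, 0 genes, 0 clones and 0 list genes passed with limma, 90 of all genes did, and the differences were 2.73 for Selenop (adjusted p = 0.177), 0.92 for Mt2 (adjusted p = 0.271) and -0.13 for Prdx1.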
